A study of Mus musculus with 9 samples.

Results

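The genes Aldoc, Slc15a2, Slc14a1, Slc1a3, Hepacam, Ednrb, Ptprz1, Fabp7 and Zbtb20, all of the astroglial lineage, were followed in whole cortex of mouse embryos at E13.5. They are 9 of the 35498 genes to which read estimates were summed, chosen by their gene totals in these libraries: glial genes whose totals moved both ways between the genotypes. All 9 passed the filter on low counts, which left 15773 genes. Those totals and their contrasts are therefore a description, with no test. There were 3 genotypes of strain C57Bl/6 with 3 libraries each. The double knockout (DKO) was Smarca1 -/-; Cre +/- and, by the design text, lacks Smarca5 as well. The Smarca1 knockout (Smarca1 KO) was Smarca1 -/-; Cre -/-, and the wild type (WT) was Smarca1 +/+; Cre -/-. DKO and Smarca1 KO therefore share the Smarca1 -/- genotype, and Cre is carried by DKO alone. What drives Cre, in which cells, and the Smarca5 alleles of the groups without Cre were not given in the sources used here. Whether each library came from its own embryo is not stated, and the p-values cover only the variation among these libraries, which may be technical.

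Radial glia are the stem cells of the embryonic cortex: they divide at the ventricle, make neurons first and later give rise to astrocytes. Many genes known as astrocyte markers in the adult brain, among them transporters, adhesion proteins and metabolic enzymes, are already active in radial glia. The switch to astrocyte production is driven by Notch, BMP and cytokine signals together with factors such as NFIA and SOX9. Smarca5 (SNF2H) and Smarca1 (SNF2L) are the ATPases of the ISWI chromatin remodellers, which slide nucleosomes along DNA.

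Library totals ran from 27466225 to 46007718 counts. Smarca5 averaged 80.2 CPM in DKO, 234 CPM in Smarca1 KO and 267 CPM in WT, where CPM is a count scaled to a fixed library total by TMM. Smarca1 averaged 38.3 CPM in DKO, 40.5 CPM in Smarca1 KO and 37.1 CPM in WT; this total does not check that genotype, since RNA outside the deleted exons, which the sources do not name, would still be counted. Radial glia markers summed to 2172 to 2465 CPM in DKO, 1986 to 2365 CPM in Smarca1 KO and 2530 to 2544 CPM in WT. Markers of mature astrocytes were measured at several levels. Gfap, the astrocyte filament gene, averaged 0.303 CPM in DKO, 0.144 CPM in Smarca1 KO and 0.121 CPM in WT, and S100b averaged 0.0345 CPM in DKO and 0.00866 CPM in Smarca1 KO with no count in WT. Over the 9 libraries the water channel gene Aqp4 measured 0.745 to 1.54 CPM, and Aldh1l1, a folate enzyme gene, 12.9 to 26.9 CPM. One DKO and one Smarca1 KO library, replicate 1 of each, stood apart by meningeal marker RNA, which summed to 656 CPM in that DKO library and 605 CPM in that Smarca1 KO library. The remaining libraries had 281 and 247 CPM in DKO, 259.7 and 259 CPM in Smarca1 KO and 438 to 526 CPM in WT.

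Scaled by transcript length, as TPM (transcripts scaled to a fixed total in each library), Fabp7 was the highest of the 9 genes, with a mean of 1153 TPM in DKO, 1141 TPM in Smarca1 KO and 988 TPM in WT. Slc14a1 was the lowest in DKO at 1.6 TPM and in WT at 0.53 TPM, with Hepacam next above it in both. In Smarca1 KO Hepacam was the lowest at 0.938 TPM, below Slc14a1 at 1.13 TPM. In DKO the order of levels from the top was Fabp7, Ptprz1, Aldoc, Slc1a3, Ednrb, Slc15a2, Zbtb20, Hepacam and Slc14a1. In DKO, Slc15a2 at 33.4 ± 13.6 TPM did not differ beyond its spread from Ednrb at 36.9 ± 3.01 TPM or Zbtb20 at 26.8 ± 4.01 TPM (SD, n = 3). In WT the order was Fabp7, Aldoc, Ptprz1, Slc15a2, Slc1a3, Ednrb, Zbtb20, Hepacam and Slc14a1. There Ptprz1 at 100.2 ± 0.841 TPM and Slc15a2 at 99.5 ± 16.7 TPM did not differ beyond their spread (SD, n = 3).

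**Figure D1:**
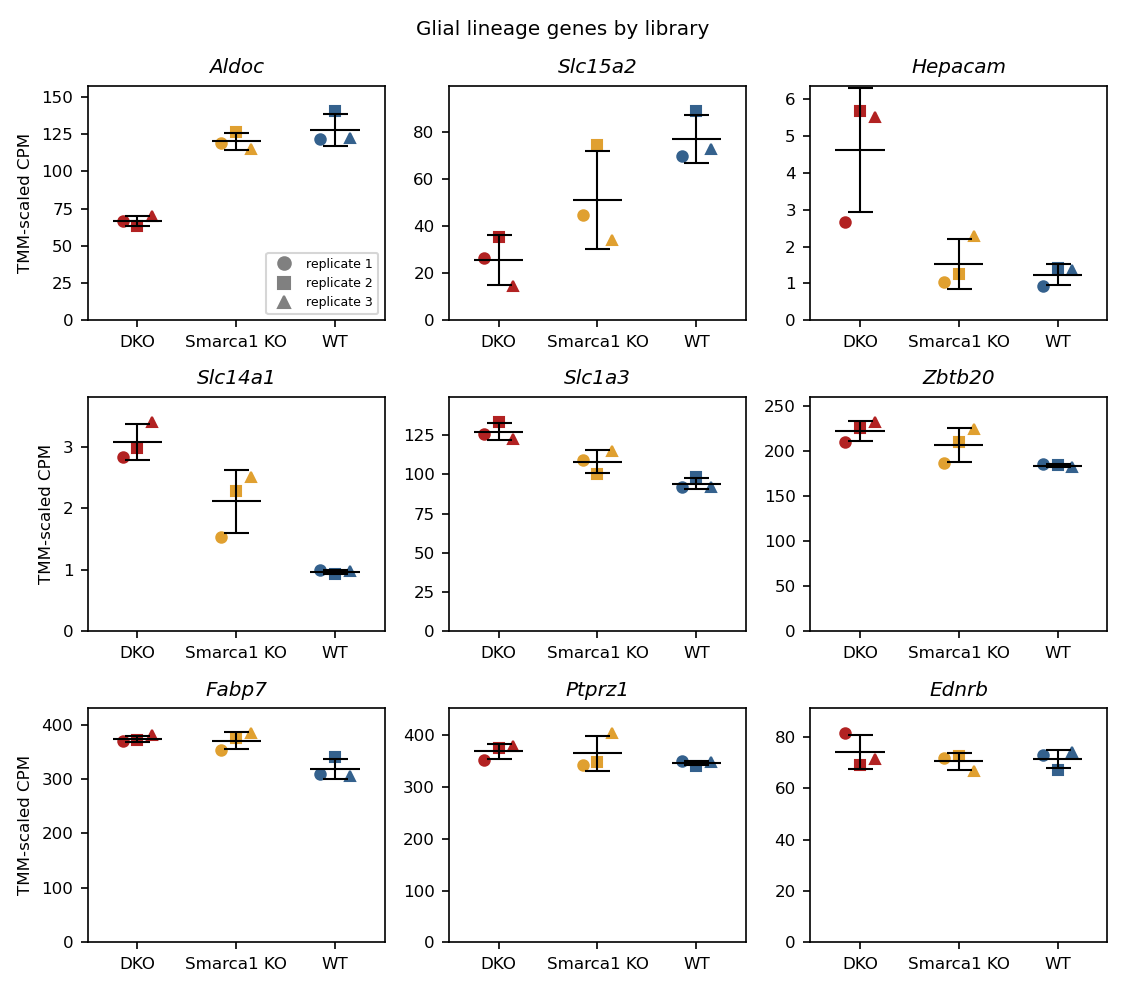
Levels of the 9 genes in every library, as CPM (TMM-scaled counts), with DKO, Smarca1 KO and WT from left to right; symbols are libraries, by replicate number, and black lines give the mean ± SD (n = 3). Aldoc and Slc15a2 lie lower in DKO than in WT, Hepacam, Slc14a1, Slc1a3, Zbtb20 and Fabp7 lie higher, and Ednrb overlaps across all groups.

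Aldoc and Slc15a2 were lower in DKO. Aldoc (ENSMUSG00000017390.15, chromosome 11, 78322968 to 78327781, plus strand, GRCm38) encodes aldolase C, the brain form of a glycolytic enzyme. It measured 66.6, 63.7 and 69.9 CPM in the libraries of DKO, 119, 126 and 115 CPM in those of Smarca1 KO and 122, 140.4 and 122 CPM in those of WT. Every DKO library was below every library of the other genotypes, and Smarca1 KO overlapped WT. On the log2 scale DKO differed from Smarca1 KO by −0.85 ± 0.07 and from WT by −0.94 ± 0.07, and Smarca1 KO differed from WT by −0.09 ± 0.06 (SE, edgeR). In bulk tissue, fewer cells of a type and less RNA per cell cannot be told apart, here and for the other genes. Aldoa, the general aldolase gene, averaged 226 CPM in DKO, 199 CPM in Smarca1 KO and 212 CPM in WT and did not pass the test (log2 fold change 0.18 in DKO over Smarca1 KO, edgeR adjusted p = 0.0779, and 0.09 in DKO over WT, adjusted p = 0.244).

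The protein-coding transcripts of Aldoc, Aldoc-201 and Aldoc-202, were both lower in DKO. Of 4 Aldoc transcripts compared, 3 had a lower mean TPM in DKO than in WT and 1 a higher one. The higher one was Aldoc-206, which is not protein-coding. It averaged 4.47 ± 0.593 TPM in DKO, 2.86 ± 2.16 TPM in Smarca1 KO and 4.29 ± 3.9 TPM in WT (SD, n = 3). Aldoc-202, from the downstream start, averaged 58.7 TPM in DKO, 109 TPM in Smarca1 KO and 113 TPM in WT, and its share of Aldoc TPM was 79.8% in DKO, 83.3% in Smarca1 KO and 80.4% in WT. Aldoc-201, which starts 1232 bases upstream, averaged 9.67 TPM in DKO, 16.6 TPM in Smarca1 KO and 19.7 TPM in WT. Both carry 1089 coding bases, and isoform use, a measure independent of the gene total, did not pass in any comparison (edgeR diffSpliceDGE adjusted p = 1 in each). The start regions of Aldoc-201 and Aldoc-202 are shown because both transcripts were lower together. They are RefSeq promoter windows of 300 bases (GRCm38.p6), on the plus strand, with matches to the searched motifs in capitals.
Aldoc upstream start, chr11:78322823-78323122: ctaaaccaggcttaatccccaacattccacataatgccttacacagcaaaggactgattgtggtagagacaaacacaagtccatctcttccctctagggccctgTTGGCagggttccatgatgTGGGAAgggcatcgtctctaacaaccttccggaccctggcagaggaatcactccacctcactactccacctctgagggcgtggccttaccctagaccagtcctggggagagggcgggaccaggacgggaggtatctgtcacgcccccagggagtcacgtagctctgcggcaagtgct
Aldoc downstream start, chr11:78323948-78324247: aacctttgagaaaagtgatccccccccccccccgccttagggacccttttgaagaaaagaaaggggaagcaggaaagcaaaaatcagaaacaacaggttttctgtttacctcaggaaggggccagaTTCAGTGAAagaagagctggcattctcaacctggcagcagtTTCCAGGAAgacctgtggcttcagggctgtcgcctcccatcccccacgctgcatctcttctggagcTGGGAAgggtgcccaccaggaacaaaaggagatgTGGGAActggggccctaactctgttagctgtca
The upstream window holds 1 TTGGC, which is the short site of NFI factors, and 1 TGGGAA, which is the core bound by RBPJ of the Notch pathway. The downstream window holds 2 matches to TTCNNNGAA, the STAT core, and 2 to TGGGAA.

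Slc15a2 (ENSMUSG00000022899.9, chromosome 16, 36750177 to 36784962, minus strand) encodes PEPT2, the proton-coupled transporter that takes up small peptides into glia. It measured 26.6, 35.6 and 14.6 CPM in the libraries of DKO, 44.96, 74.5 and 34.3 CPM in those of Smarca1 KO and 69.9, 89.05 and 72.8 CPM in those of WT. DKO lay below WT in every library, while DKO overlapped Smarca1 KO and Smarca1 KO overlapped WT. The coefficient of variation was 41.3% in DKO and 40.7% in Smarca1 KO, against 13.4% in WT. In each of DKO and Smarca1 KO, replicate 3 was lowest and replicate 2 highest. DKO over Smarca1 KO gave a log2 fold change of −1.01 ± 0.33, DKO over WT −1.60 ± 0.33 and Smarca1 KO over WT −0.59 ± 0.32 (SE, edgeR).

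All 10 Slc15a2 transcripts compared had a lower mean TPM in DKO than in WT, and isoform use did not pass in any comparison (edgeR diffSpliceDGE adjusted p = 1 in each). Slc15a2-201, with 2220 coding bases, averaged 8.41 TPM in DKO, 17.4 TPM in Smarca1 KO and 26.6 TPM in WT. Slc15a4, a lysosomal member of the family, averaged 20.1 CPM in DKO, 20.7 CPM in Smarca1 KO and 22.2 CPM in WT and did not pass the test (log2 fold change −0.14 in DKO over WT, edgeR adjusted p = 0.253). Slc15a3, also lysosomal, averaged 1.15 CPM in DKO, 0.702 CPM in Smarca1 KO and 0.98 CPM in WT and did not pass either (0.22, adjusted p = 0.603). Slc15a1 and Slc15a5 were under the filter. The Slc15a2 window, on the minus strand, is shown beside those of the other gene that was lower; its capitals are TTGGC sites, 1 on each strand.
Slc15a2, chr16:36784913-36785212: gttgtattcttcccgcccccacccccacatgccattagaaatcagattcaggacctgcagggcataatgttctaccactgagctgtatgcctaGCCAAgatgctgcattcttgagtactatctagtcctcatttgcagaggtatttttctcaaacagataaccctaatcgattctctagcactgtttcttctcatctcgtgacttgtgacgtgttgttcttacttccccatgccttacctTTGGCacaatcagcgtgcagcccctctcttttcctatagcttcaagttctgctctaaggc

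Slc14a1 and Slc1a3 were higher in DKO than in WT. Slc14a1 (ENSMUSG00000059336.14, chromosome 18, 78100091 to 78142119, minus strand) encodes the urea channel UT-B, found on astrocytes and on red blood cells. It measured 2.84, 2.98 and 3.4 CPM in the libraries of DKO, 1.53, 2.29 and 2.51 CPM in those of Smarca1 KO and 0.999, 0.936 and 0.98 CPM in those of WT, from 92 to 156 counts per library in DKO, 59 to 69 in Smarca1 KO and 27 to 39 in WT. No genotype overlapped another, with DKO above Smarca1 KO and Smarca1 KO above WT. On the log2 scale DKO differed from Smarca1 KO by 0.55 ± 0.20 and from WT by 1.66 ± 0.21, and Smarca1 KO differed from WT by 1.10 ± 0.22 (SE, edgeR). The share of Slc14a1 TPM held by Slc14a1-201 was 100% in every DKO library. It was 71.9%, 100% and 100% in those of Smarca1 KO and 100%, 85.8% and 85.8% in those of WT. Slc14a1-202 held the rest, at 0.253 TPM in Smarca1 KO replicate 1 and 0.0736 and 0.0771 TPM in WT replicates 2 and 3. No Slc14a1 transcript passed the filter, so isoform use was not tested.

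Because red cells also make Slc14a1, erythroid markers are given beside it. They summed to 882 to 1458 CPM in DKO, 1064 to 1625 CPM in Smarca1 KO and 1397 to 1876 CPM in WT, and their part in the Slc14a1 values was not tested. Of 10 erythroid markers tested, 0 rose and 1 fell in DKO over WT, where 5.61% of all genes rose and 6.35% fell. Among the genes of urea handling, Arg2, the mitochondrial arginase that makes urea from arginine, rose in DKO against both other genotypes. It measured 8.9, 9.39 and 9.52 CPM in the libraries of DKO, 3.46, 3.69 and 3.9 CPM in those of Smarca1 KO and 3.58, 3.57 and 4.31 CPM in those of WT. Its log2 fold change was 1.33 ± 0.12 in DKO over Smarca1 KO (edgeR adjusted p = 0.000451), 1.28 ± 0.12 in DKO over WT (adjusted p = 0.000658) and −0.06 ± 0.12 in Smarca1 KO over WT (adjusted p = 0.836). Slc14a2, the renal urea transporter gene, averaged 3.42 CPM in DKO, 4.09 CPM in Smarca1 KO and 2.68 CPM in WT and did not pass (0.36 in DKO over WT, adjusted p = 0.388). Arg1 was under the filter.

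Slc1a3 (ENSMUSG00000005360.14, chromosome 15, 8634124 to 8710764, minus strand) encodes GLAST, the glutamate transporter of radial glia and astrocytes. It measured 126, 133 and 122 CPM in the libraries of DKO, 109, 100.1 and 115 CPM in those of Smarca1 KO and 92.01, 98.4 and 91.8 CPM in those of WT. The genotypes did not overlap, in the same order as for Slc14a1. DKO over Smarca1 KO gave a log2 fold change of 0.23 ± 0.06, DKO over WT 0.43 ± 0.06 and Smarca1 KO over WT 0.20 ± 0.06 (SE, edgeR). The share of Slc1a3 TPM held by Slc1a3-201 was 86.5% in DKO, 85.3% in Smarca1 KO and 84.5% in WT, and isoform use did not pass (edgeR diffSpliceDGE adjusted p = 0.947 in DKO over WT).

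Of 7 tested genes of the same transporter family or of glutamate metabolism, 2 rose and 0 fell in DKO over WT, where 12% of all genes were called. Slc1a2, the glial glutamate transporter GLT-1, averaged 115 CPM in DKO, 86.6 CPM in Smarca1 KO and 75.7 CPM in WT (log2 fold change 0.61 ± 0.13 in DKO over WT, edgeR adjusted p = 0.0194). Glul, the glutamine synthetase gene, averaged 152 CPM in DKO, 132 CPM in Smarca1 KO and 118 CPM in WT (0.37 ± 0.05, adjusted p = 0.00468). In DKO over Smarca1 KO these values were 0.41 for Slc1a2 (adjusted p = 0.115) and 0.21 for Glul (adjusted p = 0.0624), and neither passed. The neuronal transporter genes Slc1a1 (0.41 in DKO over WT, adjusted p = 0.0843) and Slc1a6 (0.96, adjusted p = 0.0642) did not pass. Nor did the neutral amino acid carriers Slc1a4 (0.23, adjusted p = 0.0952) and Slc1a5 (−0.33, adjusted p = 0.318) or the glutamate dehydrogenase gene Glud1 (−0.03, adjusted p = 0.703). Slc1a7 was under the filter.

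Hepacam (ENSMUSG00000046240.8, chromosome 9, 37367351 to 37386575, plus strand) encodes GlialCAM, an immunoglobulin-like adhesion protein that holds the membrane protein MLC1 and the chloride channel ClC-2 at astrocyte contacts. It measured 2.67, 5.67 and 5.51 CPM in the libraries of DKO, 1.04, 1.26 and 2.29 CPM in those of Smarca1 KO and 0.922, 1.42 and 1.37 CPM in those of WT, from 97 to 253 counts per library in DKO, 37 to 63 in Smarca1 KO and 36 to 42 in WT. DKO lay above the other genotypes in every library, and Smarca1 KO overlapped WT. On the log2 scale DKO differed from Smarca1 KO by 1.61 ± 0.36 and from WT by 1.91 ± 0.37, and Smarca1 KO differed from WT by 0.30 ± 0.39 (SE, edgeR). Its adjusted p in DKO over Smarca1 KO passed 0.05 in only 2 of the 9 fits that left out 1 library, those without DKO replicate 1 or Smarca1 KO replicate 3. Hepacam-201, with 1254 coding bases, averaged 2.53 TPM in DKO, 0.845 TPM in Smarca1 KO and 0.689 TPM in WT.

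None of the genes of proteins that GlialCAM binds passed the test. Mlc1 averaged 24.2 CPM in DKO, 25.2 CPM in Smarca1 KO and 26 CPM in WT (log2 fold change −0.10 in DKO over WT, edgeR adjusted p = 0.353). Clcn2, the ClC-2 gene, averaged 41.4 CPM in DKO, 40.1 CPM in Smarca1 KO and 40.1 CPM in WT (0.04, adjusted p = 0.586). Gja1, the connexin 43 gene, averaged 76.6 CPM in DKO, 65.5 CPM in Smarca1 KO and 75.5 CPM in WT (0.02, adjusted p = 0.971). The paralog Hepacam2 averaged 0.691 CPM in DKO, 0.786 CPM in Smarca1 KO and 0.86 CPM in WT (−0.32, adjusted p = 0.5). The Hepacam window, on the plus strand, is shown as that of the gene with the largest log2 fold change of the 9. It begins downstream of the annotated start of Hepacam-201 (37367351), so it holds none of the sequence upstream of that start. The start of Hepacam-202 (37367636) lies within it. Its capitals are TTGGC sites, 1 on each strand, and 1 ACAAAG, which is a core bound by SOX factors.
Hepacam, chr9:37367356-37367655: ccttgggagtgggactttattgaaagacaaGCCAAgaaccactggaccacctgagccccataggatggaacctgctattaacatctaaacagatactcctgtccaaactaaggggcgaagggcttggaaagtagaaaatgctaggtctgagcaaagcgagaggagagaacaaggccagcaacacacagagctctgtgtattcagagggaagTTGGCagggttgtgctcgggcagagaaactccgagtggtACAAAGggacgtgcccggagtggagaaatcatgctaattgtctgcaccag

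Ednrb (ENSMUSG00000022122.15, chromosome 14, 103814625 to 103844402, minus strand) encodes the endothelin receptor type B, a G protein-coupled receptor of radial glia and of neural crest cells. It measured 81.5, 68.9 and 71.6 CPM in the libraries of DKO, 71.97, 72.6 and 66.9 CPM in those of Smarca1 KO and 72.98, 67.2 and 74.1 CPM in those of WT, and all groups overlapped. DKO over Smarca1 KO gave a log2 fold change of 0.07 ± 0.07, DKO over WT 0.05 ± 0.07 and Smarca1 KO over WT −0.02 ± 0.07 (SE, edgeR). Neural crest and melanoblast markers summed to 105 to 106 CPM in DKO, 116 to 119.9 CPM in Smarca1 KO and 104 to 114 CPM in WT. Of 6 tested, 1 was higher and 1 lower in DKO over WT, beside 5.61% and 6.35% of all genes. Foxd3, which defines early neural crest, averaged 0.0275 CPM in DKO, 0.0746 CPM in Smarca1 KO and 0.0201 CPM in WT.

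Estimated shares of Ednrb-201 and Ednrb-202 lay apart from WT in DKO and Smarca1 KO, where the gene total overlapped. The call of isoform use, given below, was lost in several fits. Ednrb-201 starts 706 bases upstream of Ednrb-202, and Ednrb-203 starts beside Ednrb-202; each carries 1326 coding bases. The share of Ednrb TPM held by Ednrb-201 was 23.4%, 27.2% and 25.2% in the DKO libraries, 25.8%, 25.1% and 30% in those of Smarca1 KO and 39%, 30.9% and 41.9% in those of WT. Ednrb-202 held 69.8%, 61.9% and 66.3% in the DKO libraries, 65.9%, 64.2% and 62.1% in those of Smarca1 KO and 53.3%, 60% and 49.8% in those of WT. For both transcripts DKO and Smarca1 KO lay on the same side of WT with no overlap, and DKO overlapped Smarca1 KO. Ednrb-203 held 8.73 ± 2.09% in DKO, 8.99 ± 1.49% in Smarca1 KO and 8.37 ± 0.659% in WT (SD, n = 3).

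Isoform use of Ednrb passed the test in DKO over WT (edgeR diffSpliceDGE, gene-level F test, adjusted p = 0.0249 over 10552 genes). It did not pass in Smarca1 KO over WT (adjusted p = 0.0648) or in DKO over Smarca1 KO (adjusted p = 1). Of all genes, 1.47% passed in DKO over WT, 1.75% in Smarca1 KO over WT and 0.948% in DKO over Smarca1 KO. The DKO over WT call was lost without DKO replicate 1 (adjusted p = 0.0679), DKO replicate 3 (0.113), WT replicate 1 (0.127) or WT replicate 3 (0.181), and with the Simes test over transcripts (adjusted p = 1). The lowest value was 0.00595, without WT replicate 2, and the uncertainty of assigning reads to transcripts is not part of these tests. The window at the downstream start, on the minus strand, is shown because the share of Ednrb-202 was higher in DKO; its capitals are 2 TTGGC sites.
Ednrb downstream start, chr14:103843652-103843951: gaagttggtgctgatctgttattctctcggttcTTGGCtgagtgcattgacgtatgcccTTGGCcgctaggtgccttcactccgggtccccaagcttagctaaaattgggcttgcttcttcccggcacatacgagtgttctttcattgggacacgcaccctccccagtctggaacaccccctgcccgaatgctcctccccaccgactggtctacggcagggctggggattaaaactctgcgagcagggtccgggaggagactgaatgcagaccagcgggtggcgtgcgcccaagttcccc

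**Figure D2:**
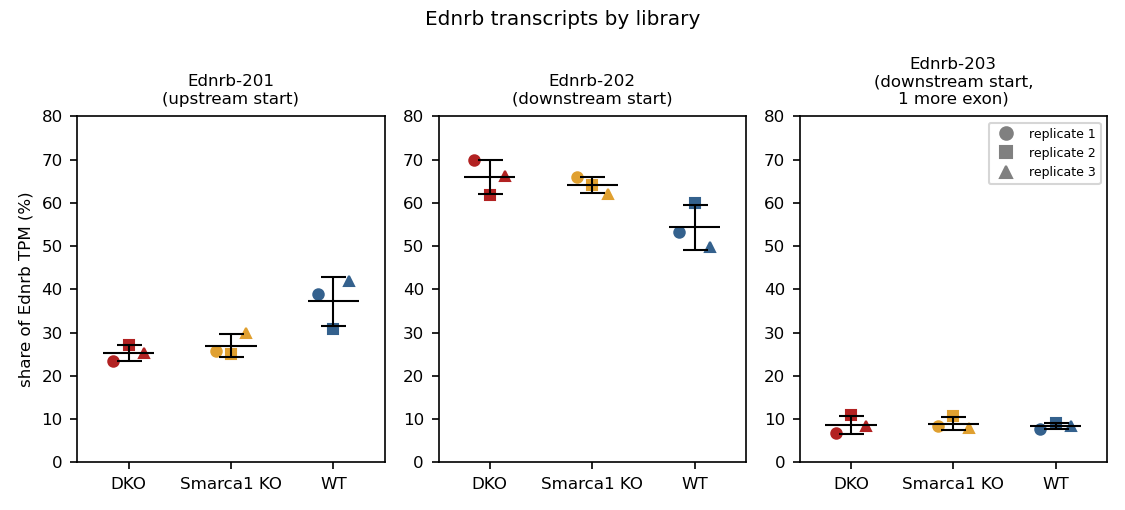
Share of Ednrb TPM held by each of its 3 transcripts, in percent, with DKO, Smarca1 KO and WT from left to right; symbols are libraries and black lines give the mean ± SD (n = 3). Ednrb-201, from the upstream start, averages 25.3% in DKO, 26.9% in Smarca1 KO and 37.3% in WT, and Ednrb-202 averages 66% in DKO, 64.1% in Smarca1 KO and 54.4% in WT.

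Of the endothelin ligand, receptor and enzyme genes, 5 were tested and 1 was called in DKO over WT, where 12% of all genes were called. Ece1, which makes active endothelins, averaged 33.2 CPM in DKO, 36.5 CPM in Smarca1 KO and 41.9 CPM in WT and fell in DKO over WT (log2 fold change −0.34 ± 0.10, edgeR adjusted p = 0.0494). Ednra, the type A receptor gene, averaged 6.63 CPM in DKO, 6.47 CPM in Smarca1 KO and 6.19 CPM in WT and did not pass (0.10, adjusted p = 0.65). The ligand genes Edn1 (0.46, adjusted p = 0.357) and Edn3 (0.17, adjusted p = 0.818) and the enzyme gene Ece2 (0.18, adjusted p = 0.342) did not pass. Edn2 was under the filter.

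Ptprz1 (ENSMUSG00000068748.7, chromosome 6, 22875502 to 23052916, plus strand) encodes a receptor tyrosine phosphatase of radial glia whose secreted form is the proteoglycan phosphacan. It measured 351, 375 and 378 CPM in the libraries of DKO, 343, 347 and 403 CPM in those of Smarca1 KO and 349, 341 and 348 CPM in those of WT. DKO lay above WT in every library by a narrow margin, and Smarca1 KO overlapped both. On the log2 scale DKO differed from Smarca1 KO by 0.02 ± 0.06 and from WT by 0.09 ± 0.06, and Smarca1 KO differed from WT by 0.07 ± 0.06 (SE, edgeR). The longest transcript, Ptprz1-201 with 6936 coding bases, had a share of Ptprz1 TPM of 46.6 ± 2.26% in DKO, 45.6 ± 1.73% in Smarca1 KO and 46 ± 0.961% in WT (SD, n = 3). Ptprz1-206, with 4836 coding bases, held 23.5% in DKO, 22% in Smarca1 KO and 22.6% in WT, and Ptprz1-204, with 4389, held 20.2% in DKO, 22.2% in Smarca1 KO and 21.8% in WT. Isoform use did not pass in any comparison (edgeR diffSpliceDGE adjusted p = 1 in each).

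The ligand genes of Ptprz1 moved in opposite directions in DKO over WT. Ptn, the pleiotrophin gene, measured 289.6, 274 and 283 CPM in the libraries of DKO, 255, 280.2 and 259 CPM in those of Smarca1 KO and 240.4, 236 and 237 CPM in those of WT. It rose in DKO over WT (log2 fold change 0.25 ± 0.04, edgeR adjusted p = 0.0106), as did Tnc, the tenascin C gene (0.79 ± 0.21, adjusted p = 0.0435). Mdk, which encodes the related growth factor midkine, measured 122, 104 and 104 CPM in the libraries of DKO, 152, 149 and 118 CPM in those of Smarca1 KO and 151, 154 and 161 CPM in those of WT and fell in DKO over WT (−0.50 ± 0.10, adjusted p = 0.0144). In DKO over Smarca1 KO none of these passed, with 0.09 for Ptn (adjusted p = 0.305), 0.15 for Tnc (adjusted p = 0.78) and −0.34 for Mdk (adjusted p = 0.085). The adhesion genes Cntn1 (0.38 in DKO over WT, adjusted p = 0.093) and Nrcam (0.10, adjusted p = 0.386), the tenascin R gene Tnr (0.42, adjusted p = 0.135) and the paralog Ptprg (−0.04, adjusted p = 0.687) did not pass.

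Fabp7 (ENSMUSG00000019874.11, chromosome 10, 57784881 to 57788450, plus strand) encodes brain lipid-binding protein, which carries fatty acids in radial glia. It measured 369, 372 and 380.3 CPM in the libraries of DKO, 353, 375 and 384 CPM in those of Smarca1 KO and 309, 340 and 306 CPM in those of WT. DKO overlapped Smarca1 KO, and both lay above WT in every library. DKO over Smarca1 KO gave a log2 fold change of 0.01 ± 0.05, DKO over WT 0.23 ± 0.05 and Smarca1 KO over WT 0.22 ± 0.05 (SE, edgeR). The share of Fabp7 TPM held by Fabp7-201 was 98.6% in DKO, 98.5% in Smarca1 KO and 98.2% in WT. Fabp3, another fatty acid-binding protein gene, measured 7.3, 10.2 and 11.9 CPM in the libraries of DKO, 6.71, 7.23 and 10.9 CPM in those of Smarca1 KO and 5.74, 4.71 and 5 CPM in those of WT and rose in DKO over WT (0.93 ± 0.22, edgeR adjusted p = 0.0279). Fabp5 averaged 206 CPM in DKO, 205 CPM in Smarca1 KO and 189 CPM in WT and did not pass (0.13, adjusted p = 0.168). Fabp1, Fabp2, Fabp4 and Fabp12 were under the filter.

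Zbtb20 (ENSMUSG00000022708.16, chromosome 16, 42875881 to 43642602, plus strand) encodes a zinc finger repressor that acts in hippocampal development and in astrocyte formation. It measured 210.4, 225 and 232 CPM in the libraries of DKO, 187, 209.7 and 224 CPM in those of Smarca1 KO and 185, 184 and 182 CPM in those of WT. DKO overlapped Smarca1 KO, and both lay above the narrow range of WT, where the coefficient of variation was 0.749%. On the log2 scale DKO differed from Smarca1 KO by 0.11 ± 0.06 and from WT by 0.28 ± 0.06, and Smarca1 KO differed from WT by 0.17 ± 0.06 (SE, edgeR). With effective transcript lengths as offsets the DKO over WT value was 0.43 and no longer passed. The locus overlaps 9 other annotated genes, 4 of them on the other strand, and 1 of the 9 was tested. Of the 31-base runs in Zbtb20 transcripts, 0.255% were shared with other genes. Whether reads were assigned by strand is unknown, and the part of the overlapping genes in the Zbtb20 total was not tested. Zbtb45, a related gene, averaged 40.7 CPM in DKO, 37.4 CPM in Smarca1 KO and 38.7 CPM in WT and did not pass (0.07 in DKO over WT, edgeR adjusted p = 0.483).

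**Figure D3:**
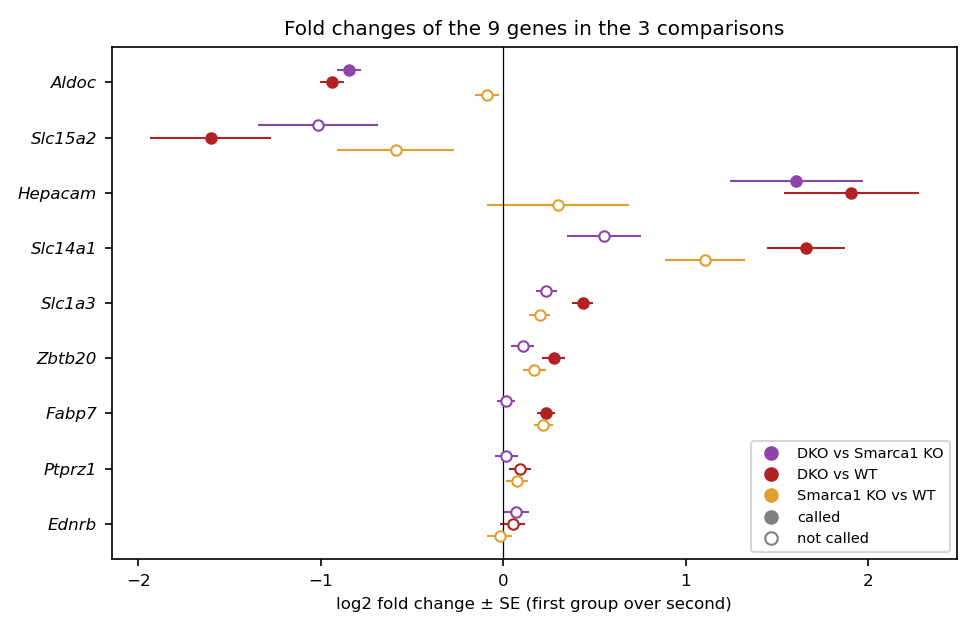
log2 fold change ± SE of each of the 9 genes in DKO over Smarca1 KO, DKO over WT and Smarca1 KO over WT; filled symbols mark an edgeR adjusted p under 0.05 over all genes. Hepacam and Slc14a1 reach 1.91 and 1.66 in DKO over WT, Slc15a2 and Aldoc −1.60 and −0.94, and Ednrb and Ptprz1 0.05 and 0.09.

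Of the 9 genes, 2 had an edgeR adjusted p under 0.05 in DKO over Smarca1 KO, against 4.39% of all genes. Hepacam was higher, as were 1.73% of all genes, and Aldoc lower, as were 2.66%. With only the compared groups fitted 1 of the 9 passed, and the smaller count over all genes in that fit is given below. In DKO over WT 7 passed, against 12% of all genes: 5 were higher (5.61% of all genes) and 2 lower (6.35%). Without DKO replicate 2, DKO replicate 3 or WT replicate 2, 4 passed in DKO over WT, and 3 without WT replicate 1 or WT replicate 3. Over all genes 450 to 3178 passed in DKO over WT when 1 library was left out, against 1887 with every library. In Smarca1 KO over WT 0 passed, against 0.336% of all genes, with 0.139% higher and 0.197% lower. DESeq2 called 2 of the 9, Slc14a1 and Fabp7, and its larger count over all genes is given below. Since these contrasts chose the genes, nothing is read from the counts. The DKO libraries lay wholly above Smarca1 KO for 3 genes (9.72% of all genes) and wholly below for 1 (10.7%). They lay wholly above WT for 6 (20.9%) and below for 2 (20.4%), and Smarca1 KO lay wholly above WT for 4 (12.5%) and below for 0 (13.6%). In either direction these shares were 20.5%, 41.3% and 26.1% of all genes. The comparisons share libraries.

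Within genotypes, the same libraries were low for several of the genes. In DKO, replicate 1 was lowest for Hepacam, Slc14a1, Zbtb20, Fabp7 and Ptprz1; in Smarca1 KO, replicate 1 was lowest for the same 5 genes and replicate 3 highest. These are the libraries rich in meningeal markers. Without both of them, DKO over WT gave 2.18 for Hepacam, 1.71 for Slc14a1, 0.31 for Zbtb20 and 0.24 for Fabp7 on the log2 scale, and −0.94 for Aldoc. In Smarca1 KO over WT, 3 of the 9 genes then passed: Slc14a1 at 1.30, Zbtb20 at 0.24 and Fabp7 at 0.25. Over all genes 607 passed in that fit, against 53 with every library. The Smarca1 KO libraries left had 259.7 and 259 CPM of meningeal markers, below the 438 to 526 CPM in WT, and the part of these cells in the 3 calls was not tested. Over the 9 libraries, as a description, deviations from the group means went together for Slc14a1 and Zbtb20 (r = 0.949) and for Zbtb20 and Ptprz1 (r = 0.836), and went apart for Hepacam and Ednrb (r = −0.841).

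The summed level of 4 Y-linked genes was 238 to 247 CPM in DKO, 253 to 268 CPM in Smarca1 KO and 258 to 266 CPM in WT, so every library held Y-linked RNA and DKO did not overlap the other genotypes. With that level as a covariate, 0 of the 9 genes passed in either DKO comparison, and over all genes 11 passed in DKO over Smarca1 KO and 6 in DKO over WT. This level and the genotype cannot be told apart here.

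Of 57 other astroglial genes, 51 passed the filter. In DKO over WT 11 rose, 7 fell and 33 did not pass, where 5.61% of all genes rose and 6.35% fell. The median log2 fold change was 0.087, beside 0.008 over all genes. In DKO over Smarca1 KO 3 rose and 3 fell, beside 1.73% and 2.66% of all genes, with a median of −0.027 beside 0.004. In DKO over WT 5 to 8 of the 51 passed without DKO replicate 2, DKO replicate 3 or any 1 WT library. In DKO over Smarca1 KO 2 or 3 passed without any 1 library except Smarca1 KO replicate 3, and 2 passed with only the compared groups fitted. In Smarca1 KO over WT edgeR called 0, beside 0.336% of all genes, and the median was 0.147 beside 0.01. DESeq2 called 8, and its count over all genes is given below. An unadjusted edgeR p under 0.05 was found for 23, and the share of all genes under that level is not given here.

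Htra1, a secreted protease gene, measured 24.5, 25.03 and 28.4 CPM in the libraries of DKO, 13.1, 10.6 and 14.5 CPM in those of Smarca1 KO and 10.2, 12.6 and 9.71 CPM in those of WT. Its log2 fold change was 1.03 ± 0.13 in DKO over Smarca1 KO (edgeR adjusted p = 0.00382) and 1.26 ± 0.13 in DKO over WT (adjusted p = 0.00124). Mt2, a metallothionein gene, measured 13.6, 14.6 and 14.9 CPM in the libraries of DKO, 8.89, 8.84 and 4.55 CPM in those of Smarca1 KO and 4.07, 5.13 and 4.45 CPM in those of WT. It rose in DKO over Smarca1 KO (0.95 ± 0.21, adjusted p = 0.0405) and over WT (1.66 ± 0.22, adjusted p = 0.00346). For both genes every DKO library was above every library of the other genotypes.

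Mmd2 and Ttyh1 fell in both DKO comparisons. Mmd2, a membrane protein gene, measured 28.1, 30.1 and 33.4 CPM in the libraries of DKO, 51.4, 56.4 and 55.1 CPM in those of Smarca1 KO and 46.6, 52.2 and 44.5 CPM in those of WT. Its log2 fold change was −0.83 ± 0.08 in DKO over Smarca1 KO (edgeR adjusted p = 0.000764) and −0.64 ± 0.08 in DKO over WT (adjusted p = 0.00251). Ttyh1, a membrane protein gene of neural progenitors, measured 182, 178 and 172 CPM in the libraries of DKO, 252, 247 and 201 CPM in those of Smarca1 KO and 269.9, 292 and 284 CPM in those of WT. Its values were −0.40 ± 0.08 (adjusted p = 0.0227) in DKO over Smarca1 KO and −0.67 ± 0.08 (adjusted p = 0.00211) in DKO over WT. Again no DKO library overlapped those of the other genotypes.

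All 45 genes of the gliogenic signals and factors passed the filter. In DKO over WT 1 rose and 13 fell, where 5.61% of all genes rose and 6.35% fell. The median log2 fold change was −0.128, beside 0.008 over all genes. In DKO over Smarca1 KO 1 rose and 1 fell (median −0.02), where 1.73% of all genes rose and 2.66% fell. In that comparison 0 passed without any 1 DKO or WT library, and 0 with only the compared groups fitted. Smarca1 KO over WT had 0 that rose and 2 that fell (median −0.108), beside 0.139% and 0.197% of all genes. Nfia, a factor that starts astrocyte gene expression, measured 254, 266 and 269 CPM in the libraries of DKO, 297, 370.1 and 337 CPM in those of Smarca1 KO and 325, 368 and 330.5 CPM in those of WT. It fell in DKO over Smarca1 KO (−0.35 ± 0.08, edgeR adjusted p = 0.0389) and over WT (−0.38 ± 0.08, adjusted p = 0.0183).

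The receptor gene Notch3 (−0.49 ± 0.08, edgeR adjusted p = 0.00911), the Notch target gene Hes1 (−0.53 ± 0.11, adjusted p = 0.0149) and the BMP transducer gene Smad5 (−0.25 ± 0.04, adjusted p = 0.00718) fell in DKO over WT on the log2 scale. None of these passed in DKO over Smarca1 KO, with −0.08 for Notch3 (edgeR adjusted p = 0.67), −0.11 for Hes1 (0.662) and −0.15 for Smad5 (0.0649). Smarca1 KO over WT gave −0.41 for Notch3 (adjusted p = 0.0807), −0.43 for Hes1 (0.123) and −0.09 for Smad5 (0.247), and none passed. The 1 gene that rose in DKO over WT, named after its values were seen, was the kinase gene Jak1 (0.22 ± 0.05, adjusted p = 0.0247). Smad1, another BMP transducer gene, rose in DKO over Smarca1 KO (0.16 ± 0.04, adjusted p = 0.0481). In Smarca1 KO over WT the genes that fell were the nuclear receptor gene Nr2f1 (−0.35 ± 0.05, adjusted p = 0.0158) and Notch1 (−0.31 ± 0.05, adjusted p = 0.0387). Without DKO replicate 2, 3 of the 45 passed in DKO over WT, and 2 passed without DKO replicate 3 or any 1 WT library. Of 7 radial glia markers, 0 rose and 1 fell in DKO over WT, beside 5.61% and 6.35% of all genes. The 1 that fell, Hes5, is also in the gliogenic list and is already counted among its genes that fell. The sums of these markers are given above, and the part of radial glia in these values was not tested.

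**Figure D4:**
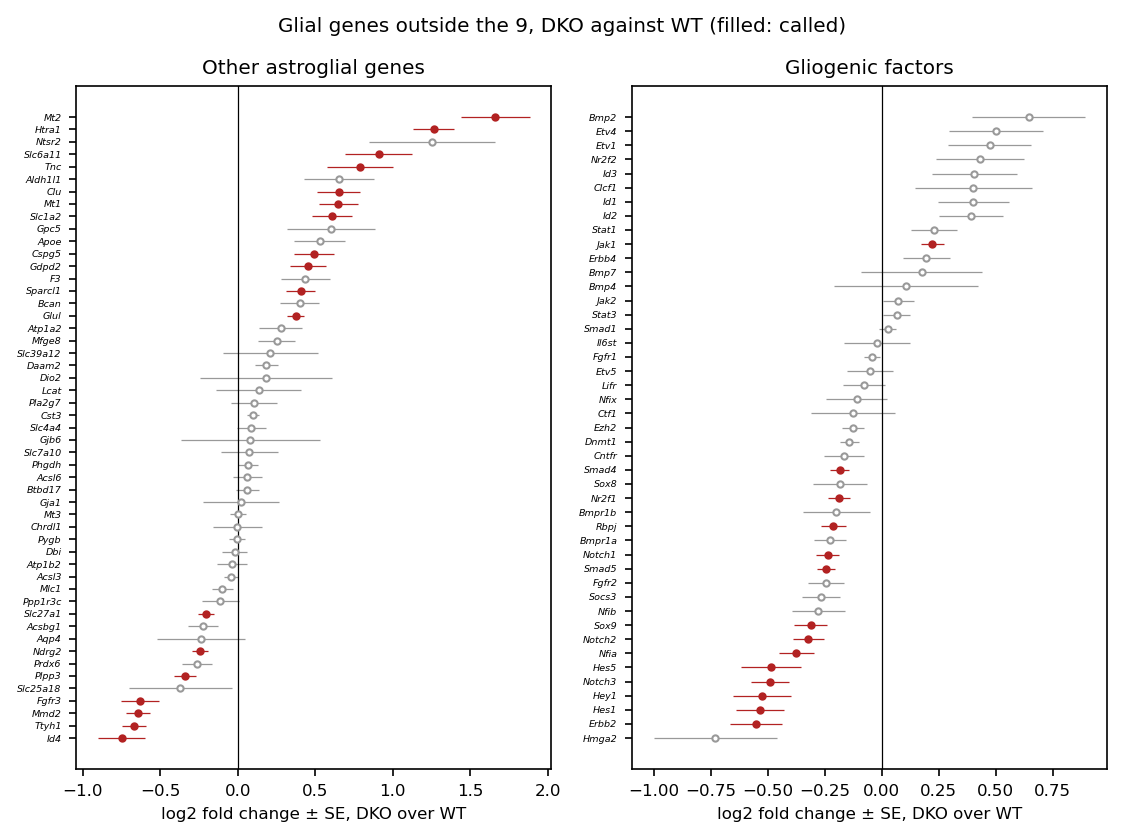
log2 fold change ± SE in DKO over WT for the 51 tested astroglial genes other than the 9 (left) and the 45 gliogenic factors (right); filled red symbols mark an edgeR adjusted p under 0.05. On the left 11 filled symbols lie above 0 and 7 below, and on the right 1 lies above and 13 below. Of all genes 5.61% were called higher and 6.35% lower.

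Beside the marker counts that follow, 1.73% of all genes rose and 2.66% fell in DKO over Smarca1 KO. In DKO over WT 5.61% rose and 6.35% fell, and 0.336% were called in Smarca1 KO over WT. No result is read from a count of 1 called marker. Of 9 microglial markers, 2 rose in DKO over Smarca1 KO and 4 in DKO over WT, and their sum was 54.3 to 69.3 CPM in DKO, 41.3 to 49.4 CPM in Smarca1 KO and 39.6 to 41.6 CPM in WT. Cortical hem and choroid plexus markers summed to 314 to 599.5 CPM in DKO, 309.6 to 421 CPM in Smarca1 KO and 233 to 327 CPM in WT, with 1 of 10 higher in DKO over WT. Ventral interneuron markers summed to 882 to 1076 CPM in DKO, 829.7 to 898 CPM in Smarca1 KO and 750.3 to 860 CPM in WT, and 3 of 7 rose in DKO over WT. Oligodendrocyte precursor markers summed to 66.4 to 74.9 CPM in DKO, 49.98 to 74.1 CPM in Smarca1 KO and 55.95 to 60.8 CPM in WT, with 0 of 6 called. Endothelial markers summed to 199 to 278 CPM in DKO, 196 to 312 CPM in Smarca1 KO and 242 to 257 CPM in WT and mural markers to 115 to 122 CPM in DKO, 101 to 148 CPM in Smarca1 KO and 112 to 121 CPM in WT. These and the meningeal markers had 0 called in each comparison. Projection neuron markers summed to 2646 to 3091 CPM in DKO, 2760 to 3432 CPM in Smarca1 KO and 2731 to 2930 CPM in WT, with 1 of 7 lower in each DKO comparison. The part of these cells in the values of the 9 genes was not tested.

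RefSeq promoter windows were found for 8 of the 9 genes, in 9 windows, and not for Slc14a1. The Hepacam window lies wholly downstream of the start of Hepacam-201, which held most of the Hepacam TPM (90.6% in DKO, 88.6% in Smarca1 KO and 93.4% in WT). The Zbtb20 window lies at the start of Zbtb20-201 and Zbtb20-203 and not at that of Zbtb20-204, which held most of the Zbtb20 TPM (57.2% in DKO, 53% in Smarca1 KO and 64.2% in WT). Both strands were searched for 7 motifs, and the short NFI site lies within the full palindromic NFI motif. TTGGC occurred for 5 of the 8 genes (Aldoc, Slc15a2, Hepacam, Ednrb and Fabp7) and in 46.7% of 32851 promoter windows of the same length. The full NFI motif occurred in none of the 9 windows and in 0.0365% of all. TTCNNNGAA occurred for Aldoc, Slc1a3 and Zbtb20, and in 8.3% of all windows. TGGGAA occurred for Aldoc, Zbtb20 and Fabp7, and in 25.6% of all windows. ACAAAG occurred for Hepacam and in 18.7% of all windows. TATAAA occurred for Slc1a3 and in 13.6% of all windows, and ACAATG for none of the 8 genes and in 12.6%. Ptprz1 held none of the motifs, and its window had 29 CpG pairs, beside a median of 7 over all windows.

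Within 500000 bases, 32 neighbours of Aldoc were tested, and those that fell in both DKO comparisons, Unc119 and Flot2, were chosen after their values were seen. Unc119, which encodes a lipid-binding trafficking protein, had −0.40 ± 0.05 in DKO over Smarca1 KO (edgeR adjusted p = 0.0044) and −0.43 ± 0.05 in DKO over WT (adjusted p = 0.00251). Flot2, the flotillin 2 gene, had −0.20 ± 0.04 (adjusted p = 0.0225) and −0.19 ± 0.04 (adjusted p = 0.0177) in those comparisons, all on the log2 scale. Another neighbour, 2610507B11Rik, fell in DKO over WT (−0.18, adjusted p = 0.042), which made 3 of 32, and 0 rose. Over all genes 6.35% fell and 5.61% rose in DKO over WT, and 2.66% fell in DKO over Smarca1 KO. Whether Aldoc and its neighbours fell together was not tested. Of 7 tested neighbours of Slc15a2 0 fell in any comparison, and 1, Stxbp5l, rose in DKO over WT (0.79, edgeR adjusted p = 0.0408). In that comparison 2 of 7 neighbours of Zbtb20 rose, Atp6v1a (0.24) and Zdhhc23 (1.04). Of 15 near Hepacam, Nrgn rose (1.59) and Msantd2 fell (−0.16), and of 3 near Ptprz1, Aass fell (−1.34). None near these members passed in the other comparisons, and Slc14a1, Slc1a3, Ednrb and Fabp7 had 0 neighbours called in any. These neighbours were also named after their values were seen.

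Likeness was measured by Pearson r of log2 CPM over the 9 libraries, which share the genotype differences, among 12389 expressed genes. Aldoc was most like Dpp7 (0.989), Zfp606 (0.987) and Smarca5 (0.987), and Slc15a2 was most like Mrpl3 (0.99), Pex11g (0.985) and Msantd3 (0.966). For Slc14a1 they were Narfl (0.987), Bin1 (0.983) and Atpif1 (0.982), and for Slc1a3 Galnt13 (0.975), Lgals8 (0.971) and Epb41l4a (0.97). For Hepacam they were Mapkbp1 (0.991), Ephb1 (0.989) and Podn (0.982), and for Ednrb Cwc27 (0.954), Npm3 (0.941) and Puf60 (0.933). Ptprz1 was like Olfm2 (0.989) and Dpysl3 (0.975), Fabp7 like Zfp354b (0.979), Zfp708 (0.959) and Dynlrb1 (0.958) and Zbtb20 like Zbtb38 (0.991), Snx16 (0.988) and Lrp11 (0.986).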

How the data were processed

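Expression was measured by RNA sequencing of stranded mRNA libraries from 9 samples of mouse cortex, 3 per genotype. Per the submitters' processing notes the authors used Salmon 1.4.0, DESeq2 and mm10. The deposited tables give, for each of 116546 transcripts, an estimated count (expected counts), a TPM value and an effective length. Estimated counts were summed to GENCODE M21 genes, rounded and tested with edgeR 4.0.16 (quasi-likelihood F test, TMM scaling, filterByExpr, all 9 libraries in 1 fit, Benjamini-Hochberg adjustment over 15773 genes, threshold 0.05) in R 4.3.3. Of the transcripts 569, with at most 0.116% of reads, did not match the annotation and were left out. CPM values use TMM-scaled totals, and a standard error is the log2 fold change divided by the root of F. Isoform use was tested with diffSpliceDGE on 45704 transcripts. The scripts were tested on simulated data. Alternatives were DESeq2 1.42.0 and its size factors, no filter, length offsets, a replicate block, a Y-linked covariate and libraries left out.

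The member genes and the gene lists were chosen with earlier results of these data known. Named genes are the 9, the 2 ISWI genes, up to 4 called genes per list and comparison with the smallest p, all measured partner genes, and the 3 genes most like each member. Some genes that this rule names are not reported here. Further genes that complete a count or mark a cell type were named after their values were seen. No 2 libraries of a group agreed within sampling noise, so none was taken as 1 library deposited again. This does not show that they came from separate animals. Chi-square per gene was 9 to 22.8 between DKO libraries, 11.6 to 22.3 between those of Smarca1 KO and 3.62 to 5.07 between those of WT. The fit of all 9 libraries shares 1 estimate of spread over these unequal groups. Counts with only the compared groups fitted are given below. Promoter windows are from RefSeq. Fabp7, Aldoc and Hepacam share no 31-base run with other genes, and the other members share at most 1.45% of theirs.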

Additional observations from a re-analysis of the deposited data

How the results depend on the processing

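Of 459 recomputed fold changes of the 9 genes, 397 kept their direction and their side of the threshold; where a value did not, the cause was not tested. Genes called in DKO against Smarca1 KO numbered 692, and 392 with length offsets, 11 with the Y-linked covariate, 398 without both replicates 1 rich in meningeal markers, 181 with only the compared groups fitted and 1135 with DESeq2 (286 to 795 leaving out 1 library). In DKO against WT they numbered 1887, and 1255 with offsets, 6 with the covariate and 3444 with only the compared groups (450 to 3178). In Smarca1 KO against WT they numbered 53, and 90 without the filter, 29 with the replicate block, 607 without the pair and 701 with DESeq2 (14 to 72).

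Of the 9 genes, 2 passed in DKO against Smarca1 KO, 0 with the covariate and 1 with only the compared groups (1 to 3 leaving out 1 library). In DKO against WT 7 passed and 0 with the covariate (3 to 7), and in Smarca1 KO against WT 0 passed, 3 without the pair and 2 with DESeq2 (0 to 1). Of the other astroglial genes 6 passed in DKO against Smarca1 KO, 3 with offsets, 0 with the covariate, 2 without the pair, 2 with only the compared groups and 12 with DESeq2 (2 to 7). In DKO against WT 18 passed and 0 with the covariate (5 to 20), and in Smarca1 KO against WT 0 passed, 5 without the pair and 8 with DESeq2 (0 to 1). Of the gliogenic factors 2 passed in DKO against Smarca1 KO, 1 with offsets, 1 with the replicate block, 0 with the covariate, 0 with only the compared groups and 7 with DESeq2 (0 to 4). In DKO against WT 14 passed, 9 with offsets, 0 with the covariate and 25 with only the compared groups (2 to 21). In Smarca1 KO against WT 2 passed, 1 with offsets, 0 with the replicate block, 7 without the pair, 1 with only the compared groups and 13 with DESeq2 (0 to 3).

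A change of isoform use was called for 1 gene in DKO against WT and for 0 with the Simes test (0 to 1 leaving out 1 library), and for 0 in Smarca1 KO against WT (0 to 1) and 0 in DKO against Smarca1 KO (0 to 0). Aldoc, Slc14a1 and Slc1a3 passed in DKO against WT without any 1 library. The Hepacam call in DKO against Smarca1 KO was lost in 7 of 9 such fits (adjusted p up to 0.132) and held without DKO replicate 1 or Smarca1 KO replicate 3; in DKO against WT it was lost in 5 (up to 0.0688), that of Slc15a2 in 3 (up to 0.0678), of Zbtb20 in 5 (up to 0.101) and of Fabp7 in 4 (up to 0.0946). Zbtb20 also lost its call with offsets (0.43, adjusted p = 0.103). Without DKO replicate 2, DKO replicate 3 or any 1 WT library, 3 or 4 of the 9 genes passed in DKO against WT.

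Signs turned for these values, none of them past the threshold. With the covariate, DKO over Smarca1 KO gave 0.0206 for Slc15a2, −0.0596 for Zbtb20, −0.00252 for Fabp7 and −0.159 for Ptprz1, and DKO over WT gave −0.104 for Ptprz1. Without the pair, Fabp7 gave −0.0109 in DKO over Smarca1 KO and Ednrb −0.0234 in DKO over WT. Leaving out 1 library, DKO over Smarca1 KO ranged from −0.00261 to 0.116 for Ednrb, −0.0224 to 0.0376 for Fabp7 and −0.0265 to 0.0939 for Ptprz1. DKO over WT ranged from −0.0238 to 0.0945 for Ednrb, and Smarca1 KO over WT from −0.0628 to 0.0158 for Ednrb, −0.102 to 0.527 for Hepacam and −0.00525 to 0.115 for Ptprz1. Replicate numbers recur across genotypes, but deviations of same-numbered DKO and Smarca1 KO libraries correlated at 0.35, −0.035 and 0.106, so they were not taken as pairs; with the replicate block Slc15a2 passed in DKO over Smarca1 KO (−1.01, edgeR adjusted p = 0.0291). Depth limits Hepacam and Slc14a1 most, with 27 counts for Slc14a1 in the lowest library.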
